A study of Mus musculus with 24 samples.

Results

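The binding sites of the transcription factors TFAP2A and TFAP2B were compared within a single mouse melanoma cell line, the Kmt2d mutant line 493. The deposited peak lists held 18530 TFAP2A peaks and 8678 TFAP2B peaks, together 27208 of the 197727 peaks in the 22 lists of the series. A TFAP2A peak that overlapped a TFAP2B peak by at least 1 bp was called joint, and a TFAP2A peak without such an overlap was called TFAP2A-only. This rule gave 7990 joint TFAP2A peaks, 10540 TFAP2A-only peaks and 520 TFAP2B peaks without TFAP2A.

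The series profiled chromatin by CUT&RUN, in which an antibody directs a nuclease to a protein and the DNA cut around it is sequenced. Of its 24 samples, 12 peak lists came from Kmt2d mutant 493 and 10 from the Kmt2d WT 971 line, and 2 IgG samples had no list used here. Kmt2d encodes a histone H3 lysine 4 methyltransferase, and both libraries compared here carry the Kmt2d mutant genotype of line 493, whose exact lesion is not given in the sources used here. Cells were cultured without a stated treatment, and TFAP2A and TFAP2B were each profiled in 1 library of this line, with a Proteintech antibody of its own. No test over replicates was therefore possible. Intervals below are 95% intervals that cover counting error only. Whether either antibody also binds the other family member was not tested.

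TFAP2A and TFAP2B belong to the AP-2 family of transcription factors, which bind DNA as homodimers or heterodimers through a basic helix-span-helix domain and recognise GC-rich palindromes of the form GCCNNNGGC. Both are active in the embryonic ectoderm and neural crest, the tissue from which melanocytes arise, and TFAP2A acts with MITF and SOX10 on pigment cell genes. Their activity is modulated by partner proteins, among them the CITED co-activators and the KCTD repressors.

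The 4 promoters shown next are the 250 bases before the gene start, read 5′ to 3′ on the strand of the gene, from the RefSeq promoter windows of GRCm38.p6 (the assembly of mm10). They show a joint and a TFAP2A-only promoter with the palindrome and one of each without it, and capitals mark GCCNNNGGC. Mxd1 (chr6:86669160-86669409, minus strand) encodes a MAX-binding repressor and Aco1 (chr4:40143015-40143264, plus strand) the cytosolic aconitase, and both had joint peaks. Tbc1d22b (chr17:29549552-29549801, plus strand), a TBC-domain gene, and Uvssa (chr5:33378446-33378695, plus strand), a gene of transcription-coupled DNA repair, had TFAP2A-only peaks.
Mxd1: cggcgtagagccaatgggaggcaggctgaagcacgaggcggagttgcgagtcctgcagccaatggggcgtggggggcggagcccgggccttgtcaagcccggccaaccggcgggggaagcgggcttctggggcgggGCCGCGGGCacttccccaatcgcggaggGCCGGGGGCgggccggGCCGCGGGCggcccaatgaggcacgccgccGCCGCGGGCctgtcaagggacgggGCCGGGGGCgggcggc
Aco1: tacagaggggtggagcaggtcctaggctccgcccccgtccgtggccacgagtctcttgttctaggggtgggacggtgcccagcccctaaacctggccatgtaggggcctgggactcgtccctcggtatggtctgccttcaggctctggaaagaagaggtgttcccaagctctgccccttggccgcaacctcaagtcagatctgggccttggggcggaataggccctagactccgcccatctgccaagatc
Tbc1d22b: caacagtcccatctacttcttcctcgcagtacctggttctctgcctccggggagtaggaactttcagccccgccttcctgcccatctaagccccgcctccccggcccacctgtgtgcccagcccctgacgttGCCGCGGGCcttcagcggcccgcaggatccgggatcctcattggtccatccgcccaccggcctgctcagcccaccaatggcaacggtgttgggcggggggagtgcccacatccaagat
Uvssa: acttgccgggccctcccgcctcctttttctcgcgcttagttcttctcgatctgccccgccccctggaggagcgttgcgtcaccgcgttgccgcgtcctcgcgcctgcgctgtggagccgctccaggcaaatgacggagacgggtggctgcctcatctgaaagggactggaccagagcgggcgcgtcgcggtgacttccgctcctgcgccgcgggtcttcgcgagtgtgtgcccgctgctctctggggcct
The Mxd1 window held 5 copies of the palindrome, starting at bases 137, 165, 181, 211 and 235 of the window, and the centre of the nearest lay 102 bp from the TFAP2A summit. Tbc1d22b held 1 copy, at base 133, with its centre 19 bp from the summit. Aco1 and Uvssa held none in these windows.

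Joint peaks made up 43.1% (Wilson 42.4 to 43.8) of the TFAP2A list, whereas 94.0% (93.5 to 94.5) of the TFAP2B list overlapped TFAP2A. The TFAP2B list was thus nearly contained in the TFAP2A list. Most joint TFAP2A peaks, 7796, held a single TFAP2B peak, while 187 held 2 and 7 held 3 or more. Near the boundary of the rule, 37 joint peaks overlapped by less than 50 bp, and 44 TFAP2A-only peaks had a TFAP2B peak within 50 bp. Only 8.07% of TFAP2A-only peaks lay within 1000 bp of a TFAP2B peak and 17.3% within 5000 bp. The joint share ran from 37.9% on chromosome 14 to 46.6% on chromosome 16.

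The TFAP2A library was the deeper of the pair. From the fold enrichment and p-value at the summits, its depth was reconstructed as 2.16 M fragments (M for mega) against 1.52 M for TFAP2B, a ratio of 0.704. When TFAP2A was thinned to the TFAP2B depth, 15925 peaks were left, of which 49.1% were joint. Thinning removed 166 joint and 2439 TFAP2A-only peaks and left 8101 TFAP2A-only peaks. Peaks without recovered summit fragments could not be thinned and were all kept, so the depth match is partial. Fragments were recovered at 7210 of 7990 joint and 9215 of 10540 TFAP2A-only peaks. With equal numbers of the strongest peaks, 8678 from each list, 74.3% of TFAP2A peaks overlapped TFAP2B. The share of joint peaks therefore moved with the depth and length of the lists, and a TFAP2A-only peak is a site at which TFAP2B was not called at this depth.

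When 6358 top peaks were taken from each list, TFAP2B overlapped 76.7% (75.6 to 77.7) of the TFAP2A peaks. TFAP2A in the WT line overlapped 70.8% (69.7 to 71.9), although it was the same antibody in a different line. The other targets of the mutant line overlapped less often, from 37.5% for H3K4me3, the histone mark of active promoters, through 32.7% for the demethylase UTX, 30.3% for Menin and 29.9% for ARID1A to 23.1% for SOX10 with antibody U. TFAP2B was the list nearest to TFAP2A in this comparison of 7 lists.

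The strength of a TFAP2A peak went with its being joint. Strength is given as the authors' fold enrichment, the ratio of fragments at the summit to the local background after a constant is added to both. The library background of TFAP2A was only 0.179 fragments, so fold enrichment largely followed the summit fragments. The median fold enrichment was 16.1 (quartiles 10.2 and 27.1) at joint peaks and 5.94 (4.36 and 8.46) at TFAP2A-only peaks. In fragments at the summit, recovered for 88.6% of TFAP2A peaks, the medians were 21 and 7. TFAP2A peaks were divided into 10 equal classes of fold enrichment. The joint share was 6.10% in the weakest class, 27.4% in class 5, 54.2% in class 7, 91.4% in class 9 and 99.0% in class 10, where the fold enrichment was 28.8 or more. Class 10 held 19 TFAP2A-only peaks beside 1834 joint ones. The strongest TFAP2A-only peak had a fold enrichment of 40.7, against 305 at the strongest joint peak. On the TFAP2B side, the median fold enrichment was 7.93 at peaks with TFAP2A and 4.44 at those without. The fewest fragments at any recovered TFAP2B summit were 3.

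**Figure D1:**
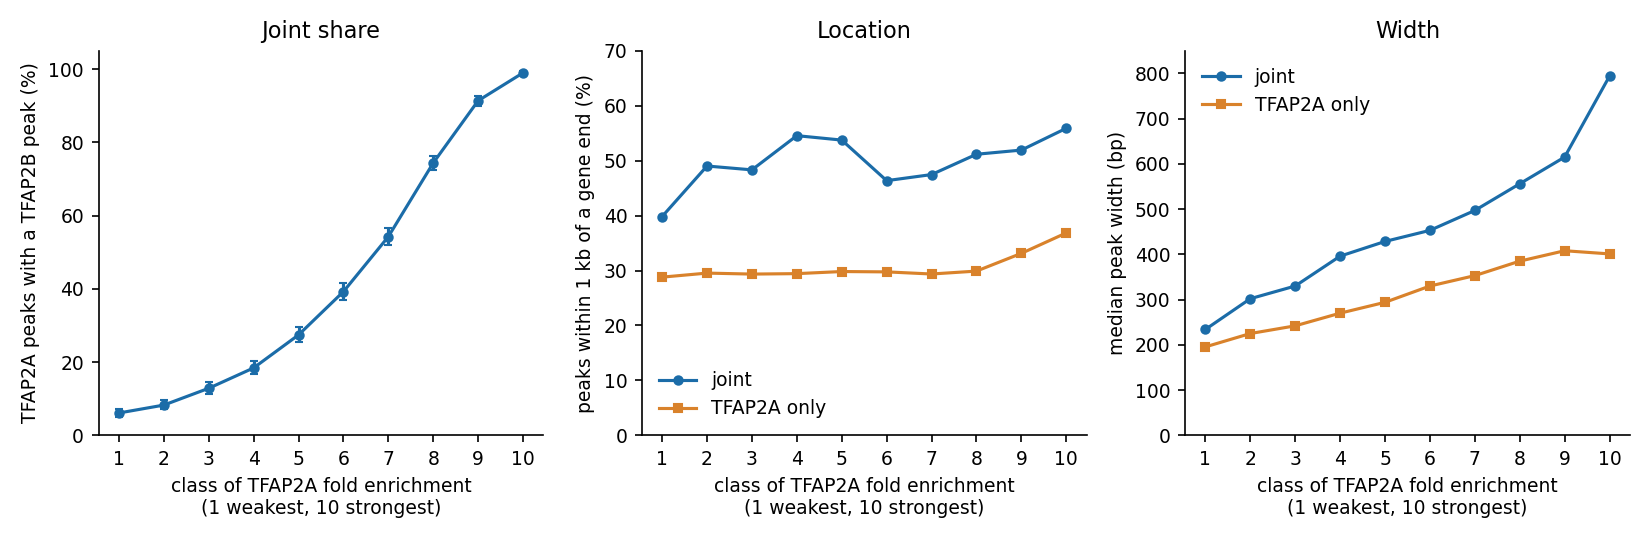
Joint share, location and width of TFAP2A peaks by class of TFAP2A fold enrichment (1853 peaks per class; bars in the first panel are Wilson 95% intervals). The joint share rises from 6.10% to 99.0%, and in every class joint peaks (blue) were more often within 1 kb of a gene end and wider than TFAP2A-only peaks (orange); class 10 holds 19 TFAP2A-only peaks.

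Joint peaks were concentrated at genes. A gene end was defined as 1 kb on either side of the start or the end of 21900 protein-coding genes. Of joint peaks, 51.5% (50.4 to 52.6) touched a gene end, against 29.5% (28.6 to 30.4) of TFAP2A-only peaks, a difference of 22.0 points (Newcombe 20.6 to 23.4). Between 1 and 5 kb from a gene end the shares were 12.1% and 15.5%. TFAP2A-only peaks were more frequent inside gene bodies beyond 5 kb of an end, at 28.1% against 19.1%, and between genes, at 26.9% against 17.3%. Most gene-end peaks whose gene has a strand in the tables lay at the start, 96.9% of joint and 92.6% of TFAP2A-only peaks, and the end alone was touched by 3.06% and 7.40%.

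Seen by location, 57.0% of TFAP2A peaks at gene ends were joint, but 32.8% of those between genes. Peaks at gene ends were also stronger, with a median fold enrichment of 10.2 against 7.64 between genes. Matched to the same mix of strength classes, the gene-end share still differed by 19.2 points, and by 19.3 points without class 10. In class 7, for example, 47.5% of joint and 29.4% of TFAP2A-only peaks were at gene ends. Joint peaks were wider and so reached windows more easily, but by the summit alone the shares were 49.0% and 27.9%.

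**Figure D2:**
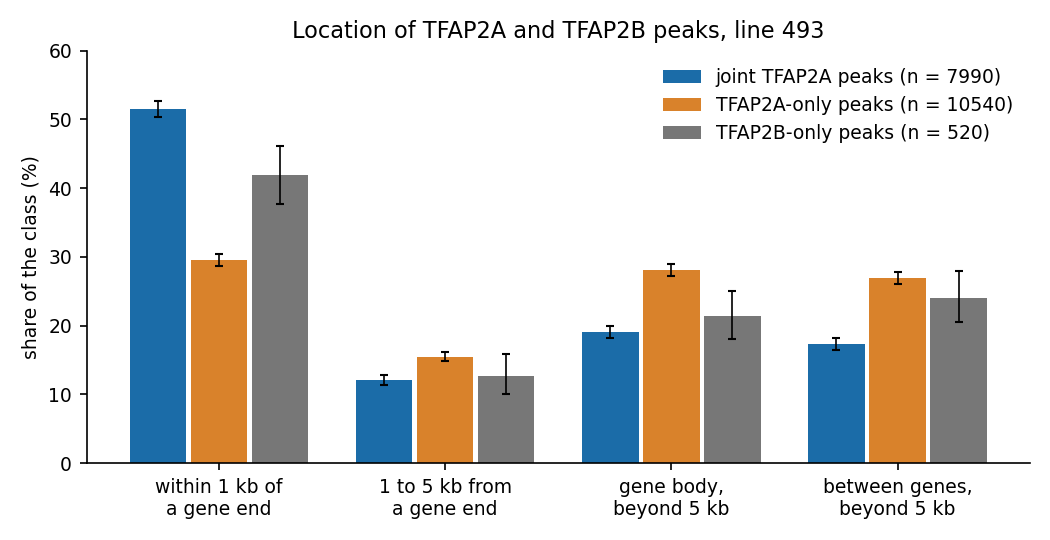
Share of each class of peaks in 4 kinds of location (bars, with Wilson 95% intervals). Joint TFAP2A peaks reached 51.5% at gene ends, TFAP2B-only peaks 41.9% and TFAP2A-only peaks 29.5%; TFAP2A-only peaks were the most frequent class in gene bodies and between genes.

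Joint TFAP2A peaks were wide. Their median width was 563 bp (quartiles 401 and 798), compared with 260 bp (197 and 372) for TFAP2A-only peaks. At gene ends the medians were 647 and 299 bp, and between genes 455 and 248 bp. Width moved with strength in both classes, and in class 7 the medians were 497 and 353 bp. The ratio of the medians was 2.17 in all peaks and 1.43 when matched on strength. TFAP2B peaks were narrower, with medians of 346 bp with TFAP2A and 207.5 bp without it. In 7734 pairs in which each peak overlapped a single partner, TFAP2B was the narrower in 6833 (88.4%), with a median width ratio of 0.684, and it lay wholly inside the TFAP2A peak in 5435 (70.3%). Peak width also depends on depth, whose part in this was not tested.

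The summits of joint peaks lay close together, although overlap by 1 bp does not require it. The median distance between the TFAP2A summit and the nearest TFAP2B summit was 46 bp (45 to 48), with quartiles of 17 and 101 bp. It was within 50 bp at 52.5%, within 100 bp at 74.9% and within 200 bp at 91.0% of joint peaks. Distances were shorter at stronger peaks, with a median of 83 bp in class 1 and 30 bp in class 10. They were 51 bp at gene ends and 39.5 bp between genes.

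The same measure against other lists gave larger medians for the other proteins of the mutant line. It was 62 bp for ARID1A, a subunit of the SWI/SNF remodelling complex, 65 bp for UTX and 68 bp for SOX10. For Menin, a partner of the KMT2A and KMT2B methyltransferases, it was 162 bp, and for H3K4me3, which flanks the promoter, 366 bp. TFAP2A of the WT line gave 48 bp (46 to 50). The intervals for TFAP2B and for TFAP2A of the WT line overlapped. Over the joint peaks alone, WT TFAP2A was nearer, at 42 bp (40 to 43).

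**Figure D3:**
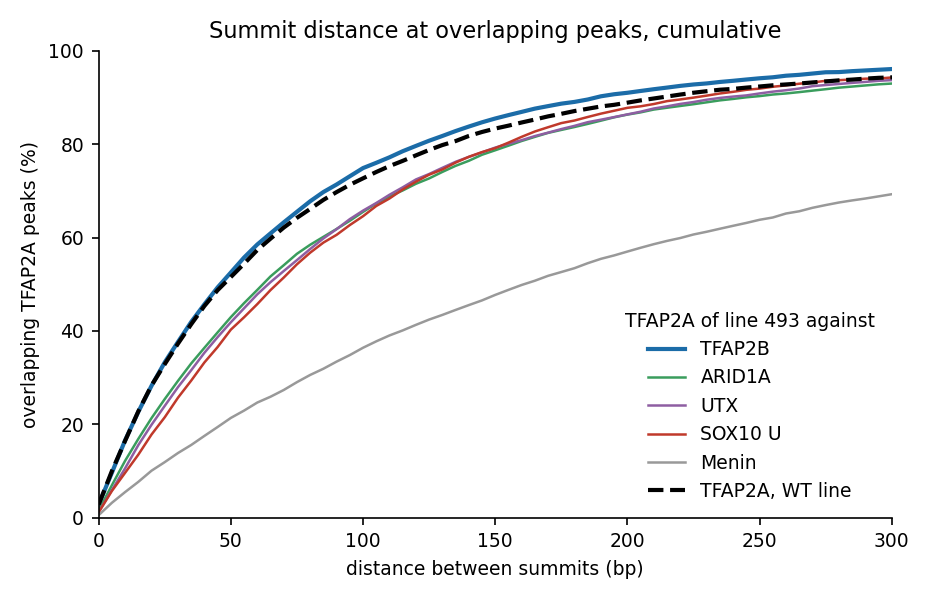
Cumulative share of overlapping TFAP2A peaks (vertical axis) whose summit lay within a given distance in bp (horizontal axis) of the summit of another list. The curves of TFAP2B and of TFAP2A in the WT line reach 74.9% and 72.7% at 100 bp, those of ARID1A, UTX and SOX10 U 65.5%, 65.8% and 64.6%, and that of Menin 36.4%.

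The heights of the TFAP2A and TFAP2B peaks ran in parallel. Over the 7990 joint peaks, fold enrichment in the one list correlated with that in the other with a Spearman rho of 0.785, which describes peaks of the same 2 libraries and has no test. Corrected for depth, TFAP2B had a median of 0.646 fragments per TFAP2A fragment (quartiles 0.497 and 0.853) at the 6710 joint peaks with both summits recovered. TFAP2B exceeded TFAP2A after this correction at 1016 of them (15.1%). The antibodies differ as well, and their efficiency was not measured, so the ratio does not compare the amounts of the 2 factors at a site. Among weak TFAP2A peaks only those with a called TFAP2B peak count here, so class 10, where nearly all are joint, is the least affected by this, with a ratio of 0.562. Within class 10 the ratio was 0.583 at gene ends and 0.539 in gene bodies.

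Single sites departed from this ratio. Among 2200 joint sites with at least 30 TFAP2A fragments and called in fewer than 15 libraries, it ran from 0.129 to 1.91, and the following sites were chosen after their values were seen. At the start of Lrrc49 (chr9:60687570-60688428) there were 44 TFAP2A fragments (exact Poisson 32.0 to 59.1) and 4 of TFAP2B (1.09 to 10.2). The peak 507 bp from Snai1, a repressor of E-cadherin (chr2:167543321-167544529), had 47 TFAP2A and 6 TFAP2B fragments. Opposite these stood Wee1, the kinase that holds back mitosis (chr7:110121410-110122266), with 91 TFAP2A fragments (73.3 to 112) and 94 of TFAP2B (76.0 to 115). Klf16, a zinc-finger factor gene, had 53 and 50 fragments. The highest ratio, 1.91, belonged to a site far from any gene with a fold enrichment of only 1.31 for TFAP2A and 1.60 for TFAP2B, called in 11 lists of the mutant line and 3 of the WT line.

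**Figure D4:**
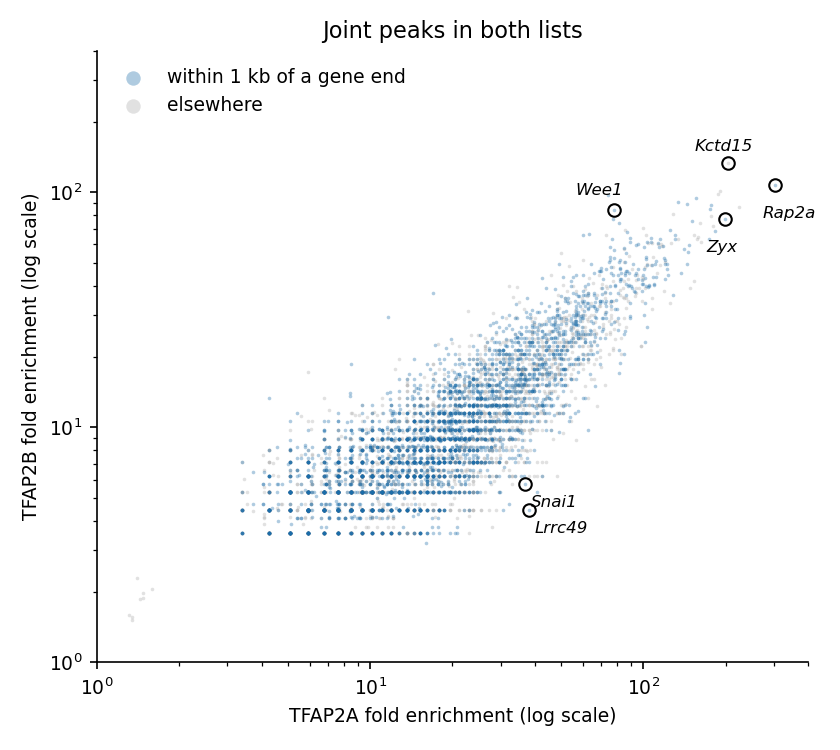
Fold enrichment of TFAP2A (horizontal, log scale) and of the strongest overlapping TFAP2B peak (vertical, log scale) at the 6710 joint peaks with both summits recovered. Blue points lay within 1 kb of a gene end, and grey points elsewhere. The points form 1 band, with Snai1 and Lrrc49 low and Wee1 high in TFAP2B for their TFAP2A value. Spearman rho was 0.785 over all 7990 joint peaks, including those not drawn. The lists differ in depth and antibody, so levels are not comparable between the axes.

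Joint peaks overlapped the other mapped targets more often. They were also wider, within strength classes as well, and a wider peak meets a 1 bp overlap more easily. The shares given here and by location below were not matched on width. H3K4me3 overlapped 65.3% of joint and 38.3% of TFAP2A-only peaks, and Menin 54.5% and 26.5%. Both were present at 50.1% of joint and 22.8% of TFAP2A-only peaks. These differences were nearly as large when matched on TFAP2A strength, at 64.9% and 37.6% for H3K4me3 and 51.2% and 27.3% for Menin. ARID1A was at 68.9% of joint and 43.4% of TFAP2A-only peaks, but at 58.4% and 50.4% when matched, and at 55.0% and 49.5% when matched without class 10. UTX went from 39.7% and 19.4% to 32.5% and 24.5%, and SOX10 U from 21.3% and 12.9% to 18.9% and 15.3%. For ARID1A, UTX and SOX10 U most of the difference therefore moved with peak strength. By class, joint peaks had more SOX10 U in classes 1 to 3, 5 and 10. In classes 4 and 6 to 9 they had less. SOX10 U was at 24.8% and 5.57% in class 1 and at 23.5% and 25.6% in class 9. SOX10 with antibody T was at 6.36% and 2.48%, and when matched at 6.10% and 2.65%. SMARCC1, the SWI/SNF core subunit, was at 8.29% and 5.92%, and when matched at 7.13% and 7.30%, the opposite order.

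Location sorted these partners further. At gene ends, H3K4me3 was at 96.1% of joint and 86.3% of TFAP2A-only peaks, and between genes at 19.1% and 8.57%. ARID1A showed the reverse gradient, with 59.1% and 25.02% at gene ends and 82.8% and 57.3% between genes. SOX10 U was at 35.0% and 19.0% of the peaks between genes. No other target of the mutant line was called at 256 joint peaks (3.20%) and at 2619 TFAP2A-only peaks (24.8%). TFAP2A of the WT line was found at 80.5% of joint and 31.5% of TFAP2A-only peaks, or 65.1% and 43.6% when matched on strength. KMT2D itself, mapped in the WT line, was at 35.9% and 12.2%, or 27.3% and 16.0% when matched.

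**Figure D5:**
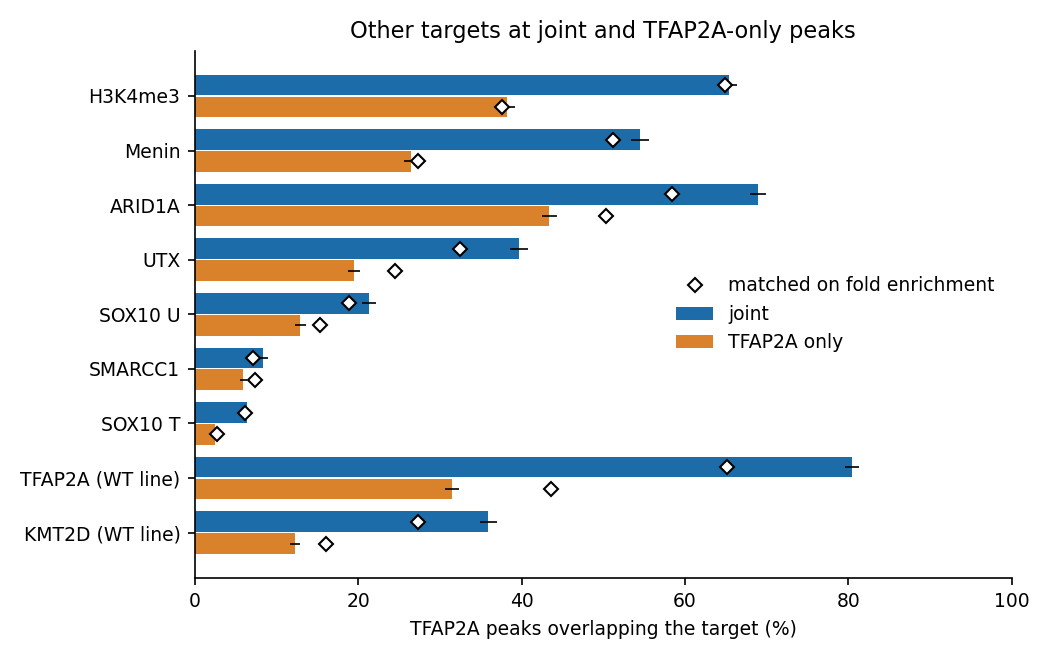
Share of joint (blue) and TFAP2A-only (orange) peaks that overlapped each other target (bars, with Wilson 95% intervals), and the same shares standardised to 1 mix of strength classes (diamonds). The diamonds stay near the bars for H3K4me3 and Menin, move together for ARID1A, UTX and SOX10 U, and swap order for SMARCC1. Peak width was not matched.

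At the level of genes, 7445 of 21900 (34.0%) had a gene-end TFAP2A peak and 4800 (21.9%) a gene-end TFAP2B peak. A joint peak lay at 4651 genes (21.2%). Joint genes were counted by the TFAP2A peak, so the overlapping TFAP2B peak need not itself touch the gene end. TFAP2A with no joint peak and no gene-end TFAP2B was at 2732 genes (12.5%), and TFAP2B without TFAP2A at 147 (0.671%). H3K4me3 marked 98.6% of the joint genes, 93.5% of the TFAP2A-only genes and 31.0% of the genes with none, with 53.8% of all genes marked. Among the 11782 genes with H3K4me3, 38.9% were joint, 21.7% TFAP2A-only and 1.19% TFAP2B-only. These shares are the background for the gene lists below.

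The strongest joint gene-end peak, at Rap2a, which encodes a Ras-family GTPase (chr14:120477230-120478836), had 358 TFAP2A fragments (322 to 397) and 120 TFAP2B fragments (99.5 to 143). Its fold enrichment was 305 for TFAP2A and 107 for TFAP2B, and the summits were 2 bp apart. Zyx, encoding the focal adhesion protein zyxin (chr6:42348679-42350197), had 234 and 86 fragments with summits 9 bp apart. The Mxd1 promoter printed above had 205 and 95 fragments with summits 12 bp apart, and that of Aco1 had 208 and 98. The shared promoter of Txndc16 and Gpr137c, and Slc25a42, a mitochondrial coenzyme A carrier, Pwwp3a, and 2810408A11Rik with Neurl4 followed, with TFAP2A fold enrichments from 153 to 182. All of these overlapped H3K4me3 and ARID1A.

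By TFAP2B fold enrichment, the leading gene-end peaks were again Rap2a (107), 2810408A11Rik with Neurl4 (95.6) and Pwwp3a (94.2), joined by Gatad2a (97.8), which encodes a subunit of the NuRD complex. Gatad2a had 165 TFAP2B fragments and a TFAP2A fold enrichment of 74.1. It was the one gene of this group outside the leading TFAP2A genes.

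The strongest gene-end TFAP2A peaks with no TFAP2B peak within 5 kb of the gene, out of 2280 such genes, were far weaker. Slc35c2, a nucleotide-sugar transporter gene (chr2:165286633-165287033), led with 38 fragments (26.9 to 52.2) and a fold enrichment of 33.1. Uvssa, whose promoter is printed above, had 37 fragments, and Slc4a7, a bicarbonate transporter gene, 36. The shared promoter of Tmem217 and Tbc1d22b had 35 and that of Foxa3, a liver transcription factor, and Sympk, of mRNA 3′ processing, had 33. Ckap2l, a mitotic spindle gene, had 35, Hmox1, encoding the haem-degrading oxygenase, 31, and Chtop 28. All of these overlapped H3K4me3, whereas ARID1A was at the peaks of Uvssa, Foxa3 with Sympk, Ckap2l and Hmox1.

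Away from genes, the strongest of 2894 joint peaks beyond 5 kb of a gene end lay inside Scara5, a ferritin receptor gene (chr14:65738665-65740348), with 263 TFAP2A and 96 TFAP2B fragments. The next lay 5901 bp from Kctd15, which encodes a repressor of TFAP2A activity (chr7:34629844-34631098). It had 240 TFAP2A fragments (211 to 272) and 149 TFAP2B fragments (126 to 175), and its TFAP2B fold enrichment of 133 was the highest in the list. It overlapped a peak in 7 other lists of the mutant line, both SOX10 lists among them. Kctd15 also had a joint peak at its own gene end, with fold enrichments of 31.4 and 26.5. Joint peaks with TFAP2A fold enrichments from 134 to 191 followed. Some lay between genes, and the nearest genes were Fam43a (172101 bp away), Trappc9 (5993 bp), Bahcc1 (23305 bp) and Cpn2 (66848 bp). For another it was Ptk2, the focal adhesion kinase gene (10845 bp). Others lay inside Plec (plectin) and Trerf1. All of these named sites overlapped ARID1A, and all but the Bahcc1 site overlapped UTX.

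Of 5797 TFAP2A-only peaks beyond 5 kb of a gene end, the strongest lay inside Rgl1, a Ral exchange factor gene (chr1:152590356-152590727), with 47 fragments (34.5 to 62.5). The peak 17866 bp from Hdac11, a histone deacetylase gene, had 68 fragments (52.8 to 86.2) at a fold enrichment of 34.9. Further peaks had fold enrichments from 29.2 to 34.8. They lay 11136 bp from Nav1, 21593 bp from 2300002M23Rik and 9080 bp from Rpn1, and inside Gm21451, Krt78, Jazf1, Agap1 and Wdr25. The sites in Jazf1 and Agap1 carried no other target of the mutant line.

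The 256 joint sites with no other mapped protein in the mutant line were also ranked by TFAP2A. The strongest was a peak 7365 bp wide, 23600 bp from the pheromone receptor gene Vmn1r77, with 247 TFAP2A and 110 TFAP2B fragments. Another, 8379 bp wide and near Vmn1r2, had 115 and 44 fragments, and a narrower one beyond it 67 and 33. More typical in width were those at Fkbp10 with Nt5c3b, where 55 and 17 fragments were counted, and at Enho, where there were 51 and 14. Sites inside Sestd1, Ubr2, Fgr and Ptpa and 37115 bp from Npr3 had TFAP2A fold enrichments from 27.6 to 39.9.

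The Tfap2 genes themselves carried few calls. Within 20 kb of Tfap2a there were 3 TFAP2A and 2 TFAP2B peaks, with 1 joint site of 6 TFAP2A and 3 TFAP2B fragments. The strongest TFAP2A peak of the locus had 13 fragments and was not joint. Tfap2b had neither a TFAP2A nor a TFAP2B peak within 20 kb, although 5 H3K4me3 peaks lay there. Around Tfap2e, 1 of 3 TFAP2A peaks was joint, 17403 bp outside the gene, with 39 TFAP2A fragments and a TFAP2B fold enrichment of 20.4. Tfap2c and Tfap2d had no peak of either factor. Of these 5 genes, only Tfap2e had a gene-end TFAP2A peak, which was TFAP2A-only.

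Among the co-regulators of AP-2 factors, Kctd1, Kctd15 and Wwox were joint and Cited2 was TFAP2A-only. Cited2, encoding a co-activator of TFAP2A, had 5 TFAP2A fragments at its start. Wwox, encoding a cytoplasmic partner, had 11 TFAP2A and 6 TFAP2B fragments. 

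Of 20 neural crest regulators, 6 were joint and 6 TFAP2A-only, and 16 carried H3K4me3. The joint genes were Sox9, Foxd3, Snai1, Twist1, Id3 and Ngfr. Id3, an inhibitor of basic helix-loop-helix factors, was the highest in TFAP2B with fold enrichments of 33.4 for TFAP2A and 11.4 for TFAP2B and summits 17 bp apart. Twist1 had 11 TFAP2A and 5 TFAP2B fragments with summits 33 bp apart. Sox10, Pax3, Snai2, Msx2, Id2 and Gbx2 were TFAP2A-only, from 3.30 at Gbx2 to 14.4 at Id2 in fold enrichment. Snai1 and Snai2, which encode related repressors, thus fell into different classes, with 47 and 7 TFAP2A fragments.

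At Sox10, the master regulator of melanocyte fate, the gene-end TFAP2A peak had 5 fragments. Within 20 kb there were 5 TFAP2A peaks and 1 TFAP2B peak, which met at chr15:79169448-79169711, 5118 bp beyond the gene, with 21 TFAP2A and 5 TFAP2B fragments. At Mitf, the melanocyte master factor, 2 TFAP2A peaks of 4 and 10 fragments lay within 20 kb and no TFAP2B peak. Around Kmt2d itself there were 5 TFAP2A peaks of 3 to 11 fragments and no TFAP2B peak. At such low counts a missing TFAP2B call in the shallower library does not show absence.

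Of 22 pigment cell genes, 3 were joint (Pmel, Bloc1s1 and Erbb3), 2 TFAP2A-only (Mc1r and Hps4) and 17 had neither factor at a gene end. H3K4me3 was at 11 of the list, and Tyr, Tyrp1, Dct and Mlana were not among them. The TFAP2B peak itself touched a gene end at only 2 of the 3 joint genes. Erbb3, encoding a neuregulin receptor of the melanocyte lineage (chr10:128565944-128566623), had 62 TFAP2A and 33 TFAP2B fragments with summits 9 bp apart. Whether this peak belongs to the start of Erbb3, to its other end or to a neighbouring gene was not examined. Pmel, encoding the melanosome fibril protein, had 24 and 12 fragments with summits 131 bp apart, and Bloc1s1, of organelle biogenesis, 29 and 19.

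Of 20 mesenchymal state genes, 9 were joint and 4 TFAP2A-only, and 19 carried H3K4me3. At 8 of the joint genes the TFAP2B peak itself touched a gene end. Vim, encoding vimentin, had 67 TFAP2A and 37 TFAP2B fragments with summits 18 bp apart. Nes, the nestin gene, had 31 and 8, and Sox2, a progenitor factor gene, 21 and 7. At Axl, a receptor tyrosine kinase gene, the joint peak of 7 and 4 fragments had summits 285 bp apart, and a stronger gene-end TFAP2A peak of fold enrichment 8.48 was not joint. Jun, Fn1, Tgfbi and Snai2 were TFAP2A-only, with 6 to 11 fragments.

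Cell adhesion genes gave 8 joint and 5 TFAP2A-only of 20, with H3K4me3 at 16. Cd151, encoding a tetraspanin partner of integrins, had 54 TFAP2A and 28 TFAP2B fragments. Itgb1, the integrin beta-1 gene, had 26 and 11 fragments with the summits at the same base. Lamc1, a laminin chain gene, had 20 and 16. Itga6, Itgb3, Mcam, Cd44 and Alcam were TFAP2A-only, with 5 to 14 fragments.

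Among 15 genes described in textbooks as AP-2 targets, 5 were joint (Erbb2, Bcl2, F2r, Igf1r and Vegfa) and Mcam and Cited2 were TFAP2A-only. F2r, the thrombin receptor gene, was the strongest with 36 TFAP2A and 15 TFAP2B fragments and summits 22 bp apart. Erbb2 had 8 and 4 fragments and Vegfa 18 and 9.

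Of 17 COMPASS genes, which encode the KMT2 methyltransferases and their partners, 9 were joint and 2, Kmt2d and Rbbp5, TFAP2A-only. The Kmt2d summit lay at -69 bp from the lower gene coordinate and -42477 bp from the upper, so the call concerns the lower end alone. Cxxc1 had TFAP2B alone, and Setd1b had both factors in peaks that did not overlap. Kmt2a had 77 TFAP2A and 36 TFAP2B fragments with summits 31 bp apart. Paxip1 had 73 and 21 fragments with summits 275 bp apart, and Men1, which encodes Menin, 35 and 18 with summits 4 bp apart. Kmt2c showed that overlap need not mean coincident summits, since its summits lay 528 bp apart with 13 and 4 fragments. The joint peak of Kmt2b had 3 and 4 fragments, while its strongest gene-end TFAP2A peak, of fold enrichment 18.7, was not joint.

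Cytosolic ribosomal protein genes, which are highly transcribed in every cell, gave 6 joint and 7 TFAP2A-only of 21, and all 21 carried H3K4me3. Rpl13 was the strongest with 27 and 10 fragments. Rps6 had more TFAP2B than TFAP2A fragments, 10 against 7. Of 12 genes restricted to other tissues, Apoa2 and Sftpc were joint, with 125 and 42 TFAP2A fragments. Both also carried H3K4me3, and neither their transcription nor the neighbouring genes were examined here.

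Cell type markers were read from H3K4me3 at gene ends. It marked 4 of 8 melanocytic genes (Sox10, Mitf, Pmel and Erbb3), 3 of 8 keratinocyte, 4 of 10 fibroblast, 1 of 8 blood cell and 1 of 6 endothelial genes. Of these lists, a joint TFAP2A peak touched a gene end at Pmel, Erbb3, Sfn and Col1a1. The TFAP2B peak itself did so at only 1 of the melanocytic genes. The melanocytic share was not above the 53.8% of all genes, so this mark does not set the labelled cell type apart here. The defining pigment enzyme genes Tyr, Tyrp1 and Dct had no called H3K4me3 at their ends.

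The sequence of promoters played no part in the rule. Of 21006 promoter windows, each from 250 bases before to 50 after a gene start, 20.1% (19.6 to 20.6) held GCCNNNGGC, a palindrome that reads the same on both strands. The share was 38.0% (36.5 to 39.4) of 4198 windows under a joint peak and 28.8% (26.9 to 30.8) of 2099 under a TFAP2A-only peak. Under H3K4me3 with neither factor it was 17.5% (16.4 to 18.6) of 4722 windows. As a control of equal base composition, CGGNNNCCG was found in 28.4%, 25.5% and 22.4% of these 3 sets and in 15.5% of all windows. Its fixed bases hold C followed by G, those of GCCNNNGGC do not, so the control is not matched for that pair of bases. Windows of 2 genes that start from a shared promoter overlap and are not independent.

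Joint windows were richer in G and C, with median GC contents of 65.0% against 62.0% under TFAP2A-only peaks. Among windows with 60 to 70% GC, the palindrome was in 36.0% (33.9 to 38.2) of joint, 28.1% (25.3 to 31.1) of TFAP2A-only and 20.4% (18.6 to 22.4) of H3K4me3 windows. The control motif was in 25.9%, 26.5% and 26.6% of the same windows, with no such order. From 50 to 60% GC, the joint and TFAP2A-only shares were 23.3% and 21.7%, with overlapping intervals, against 10.3% with H3K4me3 alone. From 70 to 80% GC they were 55.0%, 46.1% and 35.7%.

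Promoters were also compared in pooled classes of TFAP2A strength, within which joint peaks were still the stronger. The median fold enrichments, joint and TFAP2A-only, were 6.79 and 5.50 in classes 1 to 5. They were 12.7 and 10.2 in classes 6 to 8 and 31.4 and 22.1 in classes 9 and 10. In classes 1 to 5 the palindrome was in 29.95% (26.5 to 33.7) of joint and 27.0% (24.8 to 29.4) of TFAP2A-only windows. In classes 6 to 8 it was in 36.4% (33.9 to 38.8) and 31.6% (28.0 to 35.5). In classes 9 and 10 it was in 41.5% (39.4 to 43.6) of joint windows and in 25 of 57 TFAP2A-only windows, or 43.9% (31.8 to 56.7). The difference, joint minus TFAP2A-only, was 2.92 points (Newcombe -1.29 to 7.28) in classes 1 to 5, 4.72 points (0.165 to 9.11) in classes 6 to 8 and -2.40 points (-15.4 to 9.87) in classes 9 and 10. The interval thus left out 0 in the middle classes alone. For the control motif the differences were 5.05 points (0.875 to 9.38), 0.175 points (-4.20 to 4.37) and 12.4 points (0.633 to 19.9). Within 50 bp of the TFAP2A summit the palindrome was found at 17.7% (15.8 to 19.8) of 1410 joint and 14.6% (12.5 to 17.2) of 867 TFAP2A-only summits, and the control at 12.0% and 8.07%. A match of letters is a description and not a site of binding.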

How the data were processed

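CUT&RUN peak lists of TFAP2A and TFAP2B in line 493 were compared, 1 library each. Per the submitters' processing notes, the tools were FastQC, MultiQC, Bowtie2 and MACS2 and the build mm10. How the caller was set, and against which control, is not given in the sources used here. The deposited lists give a score per peak, which was not used, a fold enrichment, which is a ratio, and −log10 p and −log10 q, all by the authors. The lowest deposited −log10 p was 3.82 for TFAP2A and 4.17 for TFAP2B. No peak was left out. Peaks, though many, are not replicates, so shares have Wilson, differences Newcombe, medians order-statistic and fragments exact Poisson intervals at 95%, and no p-value is given.

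Summit fragments and the local background were recovered from fold enrichment and −log10 p, for 88.6% of TFAP2A and 85.0% of TFAP2B summits. Depth was the library background times a genome of 1870000000 bases over the shortest peak, 155 bp. Thinning scaled fragments and background by 0.704 and dropped peaks under the lowest TFAP2B −log10 p. TFAP2A peaks whose fragments were not recovered were kept. The RefSeq table of GRCm38.p6 gave 21900 protein-coding genes, and gene starts and promoters came from the RefSeq promoter windows, which matched 17492 of them. Matching reweighted joint and TFAP2A-only peaks to 1 mix of 10 classes of TFAP2A fold enrichment. Matching without class 10 and location by summit were added after seeing the data.

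Named were the 10 genes with the strongest joint gene-end peak, the 10 with the strongest gene-end TFAP2A-only peak and no TFAP2B peak within 5 kb, the 10 strongest joint and 10 strongest TFAP2A-only peaks beyond 5 kb of a gene end, the 5 strongest gene-end TFAP2B peaks, the 10 strongest joint peaks with no other mutant-line target, and members of 15 gene lists. The members and lists were chosen with earlier results of these data known. The lists were TFAP2 family, co-regulators, neural crest, pigment cell, mesenchymal state, cell adhesion, textbook targets, COMPASS, ribosomal protein and silent tissue-restricted genes, and keratinocyte, fibroblast, blood cell, endothelial and melanocytic markers. For a joint gene the strongest joint peak is given. A named site and a co-regulator gene are not reported here. Overlap, recovery, thinning and motif steps were tested on simulated data. Scripts ran under Python 3.11.15 with SciPy 1.17.1, pandas 2.3.3, NumPy 2.4.6 and Matplotlib 3.10.9.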

Additional observations from a re-analysis of the deposited data

How the results depend on the processing

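No result recomputed here changed direction; the order of the SMARCC1 shares, given above, turned when matched on strength. The share of TFAP2A peaks with TFAP2B was 39.3% with summits within 200 bp, 46.7% with only peaks of −log10 q of at least 5, 74.3% with equal numbers of top peaks and 49.1% with TFAP2A thinned to the TFAP2B depth. The share of TFAP2B peaks with TFAP2A was 92.6% with an overlap of at least 50% of the shorter peak, 83.9% with summits within 200 bp, 95.5% with the stricter q, 76.3% with equal numbers and 92.2% after thinning. The gene-end difference between joint and TFAP2A-only peaks was 19.4 points with the stricter q, 20.1 with gene ends of 2.5 kb, 19.2 when matched on strength and 19.3 when matched without class 10. The ratio of median widths was 1.84 with the stricter q, 1.71 with equal numbers, 2.03 after thinning, 1.43 when matched and 1.42 when matched without class 10. Joint summits within 100 bp made up 78.3% with the stricter q and 78.1% with equal numbers. The ratio of median fold enrichments, 2.71, was 2.37 with the stricter q, 1.77 with equal numbers and 2.42 after thinning. The H3K4me3 difference was 24.0 points with the stricter q and 29.7 with equal numbers. For ARID1A the difference of 25.6 points was 21.6 with the stricter q, 12.8 with equal numbers, 21.8 after thinning, 8.04 when matched and 5.51 when matched without class 10. For UTX it was 15.6 with equal numbers, 18.5 after thinning, 8.02 when matched and 6.88 when matched without class 10. For SOX10 U the 8.42 points were 6.87 with the stricter q, 4.10 with equal numbers, 6.74 after thinning, 3.596 when matched and 2.44 when matched without class 10. Genes with TFAP2A and no TFAP2B numbered 637 with equal numbers of top peaks, against 2732. Leaving out peaks called in at least 15 libraries kept each value inside its interval. The causes were not tested. No paired analysis was possible because TFAP2A and TFAP2B had 1 library each. Depth limits what the TFAP2B list can show: at weak TFAP2A peaks a TFAP2B peak could be missed.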
